A study of Mus musculus with 6 samples.

Results

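A set of 42 lysosomal genes was followed across the cell classes of the mouse forebrain, out of the 32285 genes of the count matrix. They were taken by name, and earlier results of these data were known when they were chosen. The set held 7 cathepsins, 9 glycosidases, 5 sulfatases and heparan N-acetyltransferase, and 5 other enzymes and cofactors of lipid and protein breakdown. It also held 7 membrane proteins, channels and transporters, 6 subunits of the vacuolar proton pump (V-ATPase) and the 3 transcription factors Tfeb, Tfe3 and Mitf. Together they took 857535 unique molecular identifiers (UMIs, 1 per captured transcript), 0.172% of all, and between 491 and 124145 each. Single-nucleus RNA sequencing (snRNA-seq) had been performed on nuclei of frozen forebrain from 3 WT mice and 3 Npc1-/- mice at postnatal day 16. Per the study's methods these were littermates, Npc1-/- mice were F1 hybrids of BALB/cJ and C57BL6/J parents that carried the Npc1nih allele, and the labels name no treatment. NPC1 is the membrane protein through which cholesterol leaves the lysosome, and Npc1-/- cells lack it in every tissue.

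Lysosomes break down what the cell takes up or recycles. Their hydrolases work at acid pH, which the V-ATPase sets by pumping protons across the membrane, and transporters carry the products out to the cytosol. Tfeb, Tfe3 and Mitf belong to the MiT/TFE family of basic helix-loop-helix factors, which bind E-box sequences with the core CACGTG and are known to drive many lysosomal genes through a longer site, the CLEAR (coordinated lysosomal expression and regulation) element. In brain, microglia and the macrophages of the meninges and perivascular spaces are the professional phagocytes, while in oligodendrocytes Tfeb is known as a brake on myelination.

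The core CACGTG was searched in the RefSeq promoter windows of GRCm38.p6, which run from 250 bases before to 50 bases after each transcription start. Of the 42 members, 35 had a window there, and 14 of these 35 (40%) held the core at least once, against 8.09% of all 27025 genes with a window and 8.91% of the protein-coding ones. The longer form TCACGTGA stood in 8 of 35 (22.9%), against 1.12% of all genes, and the full palindromic CLEAR element of 10 bases stood in Cln3 alone, against 0.37% of all genes. All these motifs read the same on both strands, the longer ones contain the shorter, and a match describes the letters in the window and not the binding of a factor. The windows of Tfeb, Tfe3 and Mitf did not hold the core. Matches follow for the aspartic protease Ctsd, the carboxypeptidase Ctsa, the disease protein Cln3, the calcium channel Mcoln1, the pump subunit Atp6v0d1 and the membrane glycoprotein Lamp1, because the results on cathepsins, membrane proteins and the pump turn on these groups. Each is written 5′ to 3′ on the strand of the gene with the core in capitals.
Ctsd, chr7:142387908-142387937, minus strand: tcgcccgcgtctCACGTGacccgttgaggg
Ctsa, chr2:164833749-164833778, plus strand: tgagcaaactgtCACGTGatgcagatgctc
Cln3, chr7:126583340-126583369, minus strand: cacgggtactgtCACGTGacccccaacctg
Mcoln1, chr8:3500462-3500491, plus strand: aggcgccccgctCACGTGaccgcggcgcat
Atp6v0d1, chr8:105566050-105566079, minus strand: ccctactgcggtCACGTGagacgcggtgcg
Lamp1, chr8:13159088-13159117, plus strand: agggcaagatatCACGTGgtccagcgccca

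Lamp1 held 4 cores in its window, and Ctsa, Gla, Mcoln1, Cln3 and Clcn7 held more than 1.

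Nuclei were placed in classes by UMIs on 109 marker genes, none of them a member. Of 75867 nuclei, 34987 (46.1%) entered 1 of 15 classes, which are called microglia-like and so on because only markers name them. The others stayed out, 15389 of them because a mixture of 2 classes described their markers better than any single class. A level is the sum of a gene's UMIs over the nuclei of a class, as counts per 1000000 UMIs of that class (CPM), with its 95% exact Poisson interval, which covers counting error only. Classes were compared by the log2 ratio of 2 levels, with a conditional binomial interval, and a gene was called when the ratio was at least 2-fold, its interval lay on 1 side of 0 and all 6 libraries had the same sign. The matrix joins 6 libraries named by a barcode suffix, and no key in the sources used here ties a suffix to a mouse. WT and Npc1-/- were therefore not compared, no test across mice was made, and libraries are given singly or as lowest, median and highest. Where library ranges of a member are said to lie apart, the share of all genes for which they do was not computed.

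Libraries held 51343653 to 107583300 UMIs, with medians of 4469 to 5439 UMIs per nucleus. The classes differed in depth, from a median of 2223.5 UMIs in microglia-like nuclei to 9152 in excitatory neuron-like nuclei, and in size, from 168 border macrophage-like nuclei (11 to 52 per library) to 13032 excitatory neuron-like nuclei. Some markers outside the gate followed the names. C1qb, a complement gene, stood at 119.6 CPM in microglia-like and at 3.08 CPM in excitatory neuron-like nuclei. Mbp, a myelin gene, stood at 8211 CPM in mature oligodendrocyte-like nuclei. Neuroblast-like nuclei were less clear, with Cd24a at 2.57 CPM, and pericyte-like nuclei also carried endothelial markers (Slco1a4 837 CPM, against 1754 CPM in endothelial-like nuclei). UMIs of genes of other cell types appeared in every class. The neuronal gene Nrgn, a marker outside the gate for excitatory neuron-like nuclei, did not follow that name. It reached 434 CPM in microglia-like and 196 CPM in excitatory neuron-like nuclei. Camk2a stood at 271 CPM in the former and 833 CPM in the latter, and Ttr of the choroid plexus stood at 749 CPM in microglia-like nuclei. The source of these UMIs and their part in the results on the members were not tested.

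The members' summed level was highest in the macrophage-like classes and lowest in neurons. Border macrophage-like nuclei stood at 4637 CPM (4429 to 4852) and microglia-like nuclei at 4306 CPM (4248 to 4366). Choroid plexus-like nuclei followed at 2932 CPM (2831 to 3035) and immature oligodendrocyte-like nuclei at 2442 CPM (2395 to 2490.1). The lowest level was that of excitatory neuron-like nuclei, 1447 CPM (1441 to 1454). Over the 6 libraries the lowest, median and highest sums were 3885, 4489 and 6127 CPM in border macrophage-like nuclei, 3904, 4275 and 4972 CPM in microglia-like nuclei and 1308, 1461 and 1592 CPM in excitatory neuron-like nuclei. The microglia-like and excitatory neuron-like ranges did not overlap, whereas the border macrophage-like range covered that of microglia-like nuclei.

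**Figure D1:**
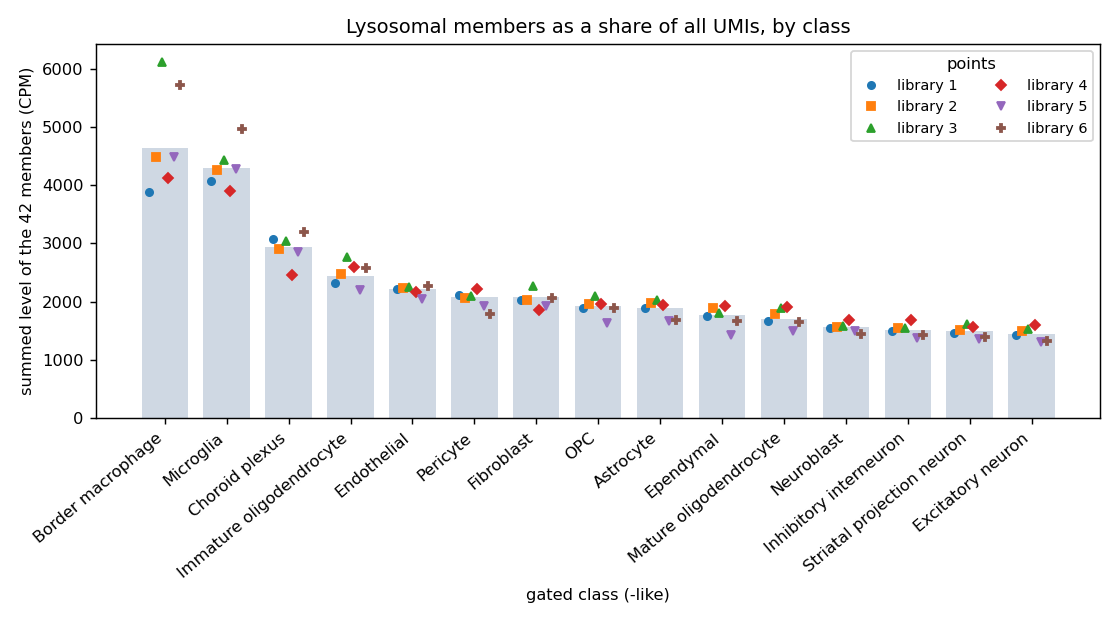
The vertical axis is the summed level of the 42 members in CPM, and the horizontal axis lists the 15 gated classes from highest to lowest. Bars are the levels over all nuclei of a class and points are the 6 libraries, and the microglia bar (4306 CPM) stands above every point of the oligodendrocyte, astrocyte and neuronal classes.

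Between these ends, endothelial-like (2213 CPM), pericyte-like (2077), fibroblast-like (2072), OPC-like (1918; OPC, oligodendrocyte precursor cell), astrocyte-like (1895), ependymal-like (1760.3) and mature oligodendrocyte-like nuclei (1693) formed a gradual series. Neuroblast-like, inhibitory interneuron-like and striatal projection neuron-like nuclei came next at 1556, 1511 and 1489 CPM. Neighbours in this order that counting error did not separate were pericyte-like and fibroblast-like, OPC-like and astrocyte-like, ependymal-like and mature oligodendrocyte-like, neuroblast-like and interneuron-like, and interneuron-like and striatal projection neuron-like nuclei. Per nucleus the order was another one, since excitatory neuron-like nuclei held 15.01 UMIs of the members, border macrophage-like nuclei 11.1, microglia-like nuclei 10.1 and astrocyte-like nuclei 7.04. A level in CPM is thus a share of the transcripts of a class, and every difference below is one of shares.

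Arsb and Mitf, both long genes, weighed on the sums. Arsb encodes arylsulfatase B, which removes sulfate from dermatan and chondroitin sulfate, and spans 171 kb (chr13:93771630-93943016, GRCm38, GENCODE M21). Mitf spans 214 kb (chr6:97807052-98021349). Without these 2 genes, chosen after their values were seen, the sum was 4107 CPM in border macrophage-like, 3270.5 in microglia-like, 2001 in choroid plexus-like, 1634 in immature oligodendrocyte-like and 1271 in excitatory neuron-like nuclei. The order between the ends then changed. Endothelial-like nuclei (2120 CPM) stood above choroid plexus-like nuclei. Pericyte-like (1975), fibroblast-like (1895) and astrocyte-like nuclei (1736) stood above immature oligodendrocyte-like nuclei, whose interval overlapped that of ependymal-like nuclei (1650).

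Taken singly, 31 of the 42 members had their highest level in border macrophage-like (20 members, against 16.4% of all genes) or microglia-like nuclei (11 members, against 8.5%), and the 2 classes together led for 24.9% of all genes. The 11 led by microglia-like nuclei were Ctsd, Ctss, Gaa, Gusb, Naglu, Idua, Arsb, Ctns, Cln3, Atp6v1c1 and Tfe3. Of the other 11 members, astrocyte-like nuclei led for Gm2a and Ostm1, endothelial-like for Ctsh and Mcoln1, choroid plexus-like for Gla and Mitf, ependymal-like for Ids, pericyte-like for Sgsh, interneuron-like for Galns, striatal projection neuron-like for Atp6v1h and mature oligodendrocyte-like for Tfeb. Of all genes, 4.56%, 7.5% and 10.7% were highest in astrocyte-like, endothelial-like and choroid plexus-like nuclei, 11.2%, 6.98%, 3.52%, 4.5% and 5.63% in the next 5 classes named, and 2.72%, 4.37%, 6.5%, 3.31% and 3.6% in OPC-like, immature oligodendrocyte-like, fibroblast-like, excitatory neuron-like and neuroblast-like nuclei, where no member was. For 29 members the lowest level was in 1 of the 4 neuronal classes, against 39.7% of all genes, and for 11 it was in excitatory neuron-like nuclei, against 16.5%. In 15 members the highest class exceeded the next one beyond counting error, and 21 members had at least 100 UMIs in their highest class. Neither count was made for all genes.

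The spread between classes was widest for Ctss, Tfeb, Mitf and Ctsh, with folds between the highest and the lowest class of 127, 52.1, 35.01 and 33.4. It was narrowest for the pump subunits Atp6v1h (1.96-fold) and Atp6v1b2 (2.1001-fold). Gla, α-galactosidase A, had no UMI in border macrophage-like nuclei, where 3 UMIs would stand at 7.44 CPM, and no fold is given for it. Glb1 shares its strand and position with Tmppe, so its counts are uncertain, and for the other 41 members no counted gene on the same strand overlapped.

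**Figure D2:**
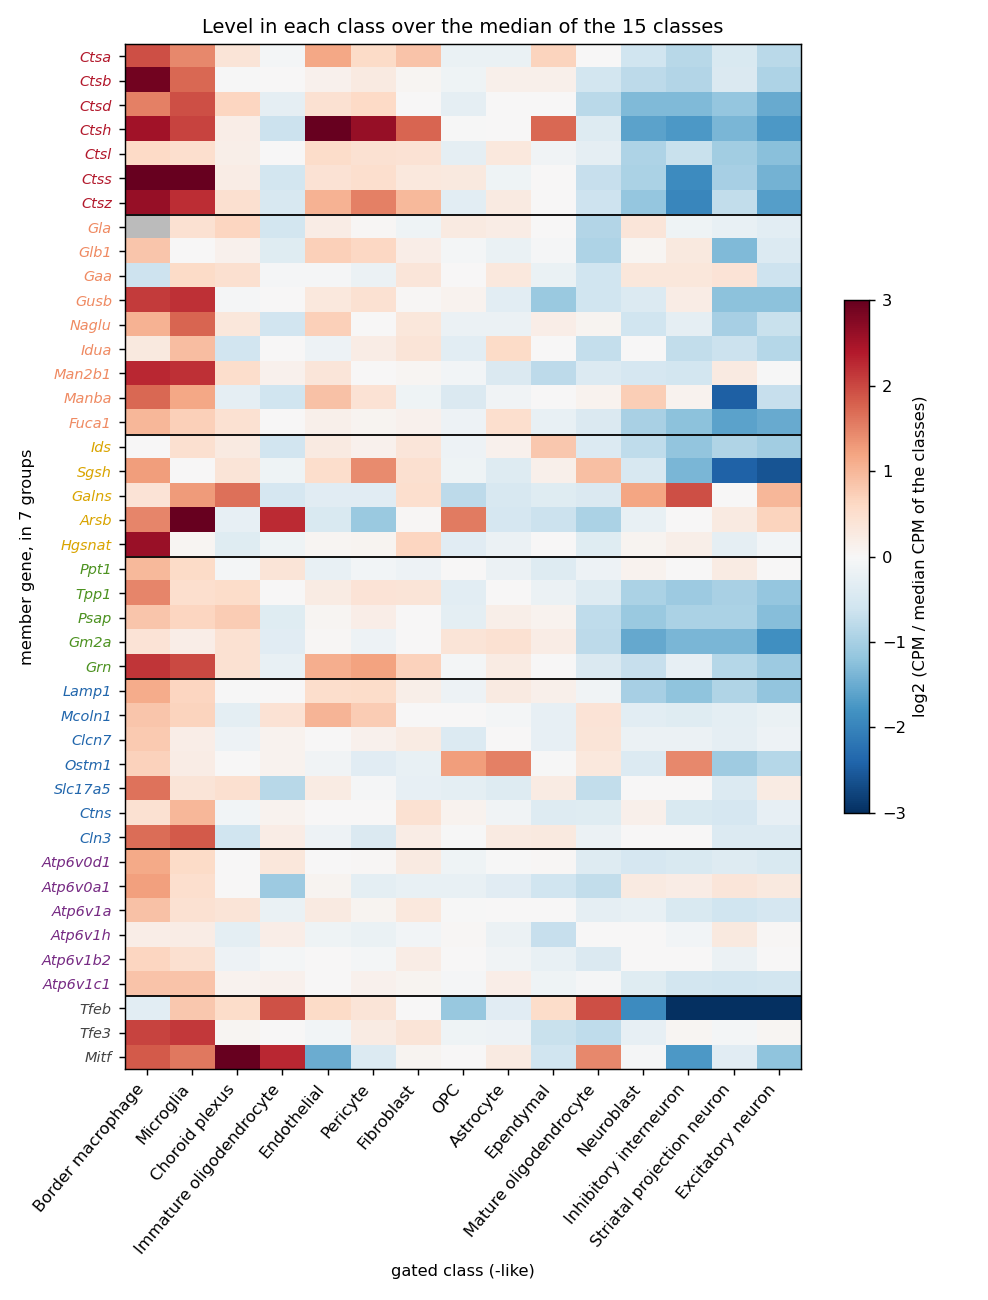
Each row is 1 of the 42 members in its group and each column 1 of the 15 gated classes, and the colour is the log2 of the level in CPM over the gene's median level in the classes, limited to 3 on either side. Grey marks a gene with no UMI. The 2 left columns, border macrophages and microglia, are red for most enzymes, and the 4 right columns, the neuronal classes, are blue for most. Among the V-ATPase rows, Atp6v1h has the narrowest spread between classes (1.96-fold) and Atp6v0a1 the widest (5.04-fold).

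Microglia-like nuclei, the resident phagocytes, were set against excitatory neuron-like nuclei, the class with the lowest sum. Of 42 members, 29 were called higher in microglia-like nuclei and 0 lower, against 25.6% and 9.38% of all genes tested. The members' median log2 ratio was 1.81, that of all genes 0.62, and the members' sum differed by 1.57 (1.55 to 1.59) on the log2 scale, 2.98-fold, with library values from 1.29 to 1.92. With ratios centred on the all-gene median, 21 members were called higher and 0 lower, and Gaa, Idua, Ids, Tpp1, Ctns, Ostm1, Atp6v0d1 and Atp6v1c1 were no longer called. No share of all genes was computed with centred ratios. With all nuclei placed by highest likelihood, each in the class of best-matching markers and with no gate, Gaa, Ctns, Ostm1 and Atp6v0d1 were not called. The call of Ostm1 was also lost without library 3 and that of Atp6v0d1 without library 6. In UMIs per nucleus the sum turned round, to -0.57, and the median nucleus held 2223.5 UMIs of all genes in the former class and 9152 in the latter.

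The cathepsins, proteases of the lysosome lumen, differed most among the enzymes, with 7 of 7 called higher and a summed log2 ratio of 3.25 (3.20 to 3.30). Ctss, a cysteine protease of antigen-presenting cells (chr3:95526786-95556403), stood at 239 CPM (225 to 253) in microglia-like and 2.64 CPM (2.37 to 2.93) in excitatory neuron-like nuclei, a log2 ratio of 6.50 (6.33 to 6.67). In libraries 1 to 6 the Ctss level was 233, 255, 209, 173, 325 and 289.6 CPM in microglia-like nuclei and 2.09, 2.63, 3.86, 3.97, 1.24 and 2.02 CPM in excitatory neuron-like nuclei. A UMI of Ctss was found in 38.7% (36.6 to 40.8) of microglia-like nuclei, and in 28.6% after thinning each nucleus to 1500 UMIs, against 0.468% of excitatory neuron-like nuclei thinned likewise. Every microglia-like library stood above every excitatory neuron-like one. Ctsd, the main aspartic protease (chr7:142375911-142388038), stood at 138, 148, 212, 192, 134 and 208 CPM in microglia-like nuclei of the 6 libraries and at 13.2, 16.7, 23.3, 22.1, 10.2 and 10.8 CPM in excitatory neuron-like nuclei, which gave 3.44 (3.32 to 3.56) as log2 ratio. Ctsz and Ctsh followed at 3.87 and 3.75, and Ctsb, Ctsa and Ctsl at 2.64, 2.26 and 1.76 on the log2 scale. With all nuclei placed by highest likelihood, Ctss lay at 5.43 and Ctsd at 2.77.

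Ctsh, an aminopeptidase, was the exception among cathepsins in its highest class. Endothelial-like nuclei stood at 144 CPM (135 to 153), with 173, 137, 119, 111, 186 and 226 CPM in the 6 libraries, and pericyte-like nuclei, which carried endothelial markers, at 87.2 CPM. Microglia-like nuclei stood at 80.6, 59.2, 42.2, 39.5, 89.4 and 60.9 CPM in libraries 1 to 6, below the endothelial-like value in each. Its lowest level was in interneuron-like nuclei, 4.31 CPM (2.46 to 6.99).

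Of the 9 glycosidases, which trim sugars from glycoproteins, glycolipids and glycosaminoglycans, 7 were called higher in microglia-like nuclei and Gla and Glb1 were not. Gusb, β-glucuronidase, stood at 64.3 CPM against 5.99 CPM, a log2 ratio of 3.42 (3.23 to 3.62). Its lowest, median and highest library values in microglia-like nuclei were 52.6, 63.7 and 81.2 CPM, and those in excitatory neuron-like nuclei 4.77, 5.999 and 7.23 CPM. The ranges of Gusb were apart. Gaa, acid α-glucosidase, which digests glycogen, had the smallest called ratio of the group, 1.20 (0.96 to 1.43), and centred on all genes it fell short of 2-fold. In microglia-like nuclei Gaa varied from 17.2 to 47.1 CPM over the libraries and in excitatory neuron-like nuclei from 10.7 to 19.2 CPM, so that these ranges overlapped. Naglu, Fuca1, Man2b1, Manba and Idua lay between 1.79 and 2.40 on the log2 scale.

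Among the 5 genes of sulfate and heparan breakdown, Arsb and the iduronate sulfatase Ids were called higher in microglia-like nuclei, and Galns, Sgsh and Hgsnat were not. Arsb stood at 898, 923, 612, 640.1, 973 and 886 CPM in microglia-like nuclei of libraries 1 to 6 and at 155, 144, 138, 147, 131 and 126 CPM in excitatory neuron-like nuclei, a log2 ratio of 2.49 (2.44 to 2.54). A UMI of Arsb was found in 75.8% of microglia-like and 64.8% of excitatory neuron-like nuclei, and at 1500 UMIs per nucleus in 64.9% and 18.3%. The first shares, at unequal depth, thus lay closer together than those at equal depth. Galns, which acts on keratan sulfate, had its highest level in interneuron-like nuclei (28.5 CPM (23.4 to 34.5); libraries 1 to 6, 25.5, 35.3, 24.3, 34.9, 20.1 and 30.5 CPM) and its lowest in OPC-like nuclei (4.34 CPM). Choroid plexus-like nuclei, at 23.7 CPM of Galns, were not separated from interneuron-like nuclei by counting error.

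Of the other enzymes and cofactors, 4 of 5 were called higher in microglia-like nuclei. Psap, the precursor of the saposins that present sphingolipids to their hydrolases, stood at 288, 339, 329.6, 275, 287 and 266 CPM in microglia-like nuclei of the 6 libraries and at 76.2, 92.1, 98.9, 91.5, 58.2 and 54.3 CPM in excitatory neuron-like nuclei. Its log2 ratio was 1.93 (1.85 to 2.01), and the library ranges were apart. Grn, the precursor of granulins, had a ratio of 3.07 (2.88 to 3.27), with lowest, median and highest libraries of 50.4, 59.3 and 69.3 CPM against 4.72, 7.02 and 9.42 CPM. Gm2a, the activator protein for GM2 ganglioside, had a ratio of 2.04 (1.72 to 2.34). Its level in astrocyte-like nuclei (25.5 CPM; libraries, 21.6, 25.95 and 28.2 CPM) was not separated from that in choroid plexus-like nuclei (25.5 CPM), and microglia-like nuclei stood at 21.4 CPM. Tpp1, tripeptidyl peptidase, was called at 1.66, and Ppt1, palmitoyl-protein thioesterase, at 0.57 was not.

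Membrane proteins differed less as a group, with 4 of 7 called and a summed log2 ratio of 1.07 (0.99 to 1.14). Lamp1, the abundant glycoprotein that lines the lysosome, stood at 103, 124 and 161 CPM in the lowest, median and highest microglia-like library and at 29.9, 33.95 and 39.8 CPM in the excitatory neuron-like ones, a log2 ratio of 1.84 (1.71 to 1.96). Cln3 had a ratio of 2.25 (2.03 to 2.46), with 36.1, 41.9 and 53.5 CPM against 7.61, 9.66 and 10.8 CPM. Both genes had ranges that did not overlap. The cystine transporter Ctns (1.25) and Ostm1 (1.07) were called as well, while Mcoln1, Clcn7 and the sialic acid transporter Slc17a5 lay between 0.14 and 0.85 and were not.

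Among the groups of members, the 6 subunits of the V-ATPase, a pump that also sets the proton gradient of synaptic vesicles, differed least. Of these 6, Atp6v0d1 (1.04) and Atp6v1c1 (1.42) were called higher in microglia-like nuclei. Their sum differed by 0.54 (0.50 to 0.58) on the log2 scale, which centred on all genes became -0.083. The small difference was not that of every pump gene, since the sum of 17 other V-ATPase genes differed by 1.27 (1.24 to 1.31). Atp6v0a1, the membrane subunit a1 known from neurons, stood at 279, 293 and 328 CPM in the lowest, median and highest microglia-like library and at 244, 258 and 293 CPM in the excitatory neuron-like ones. Its ratio of 0.21 (0.13 to 0.28) turned to -0.41 when centred, and the library ranges overlapped. Atp6v1c1, subunit C of the cytosolic domain, stood at 89.2, 104 and 127 CPM against 36.3, 39.4 and 40.99 CPM. Atp6v1a, Atp6v1b2 and Atp6v1h lay at 0.96, 0.47 and 0.19 and were not called.

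All 3 MiT/TFE factors were called higher in microglia-like nuclei, with a summed log2 ratio of 2.82 (2.74 to 2.89). Tfeb stood at 51.8, 85.5, 70.9, 52.2, 54.999 and 68.3 CPM in microglia-like nuclei of libraries 1 to 6 and at 3.03, 2.67, 2.49, 3.57, 2.47 and 2.13 CPM in excitatory neuron-like nuclei, a ratio of 4.59 (4.36 to 4.81). Mitf stood at 163, 179, 284, 252, 251 and 339 CPM and 32.3, 35.01, 38.02, 44.1, 30.2 and 31.2 CPM, a ratio of 2.79. Tfe3 had a ratio of 2.06 (1.87 to 2.24), with 55.996, 61.4 and 64.8 CPM against 13.02, 14.4 and 17.4 CPM. None of the 3 pairs of ranges overlapped, and the share of all genes with ranges apart was not computed. Of the 34 other lysosomal genes in a list written for comparison, 24 were called higher in microglia-like nuclei and 0 lower, and of 17 other V-ATPase genes 11 were called higher and 1 lower. Among the largest ratios in these lists were those of Laptm5 (5.68) and Tfec (5.55), and among pump genes Tcirg1, the macrophage and osteoclast a3 subunit (5.56), Atp6v1f (2.08) and Atp6v0c (1.95).

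**Figure D3:**
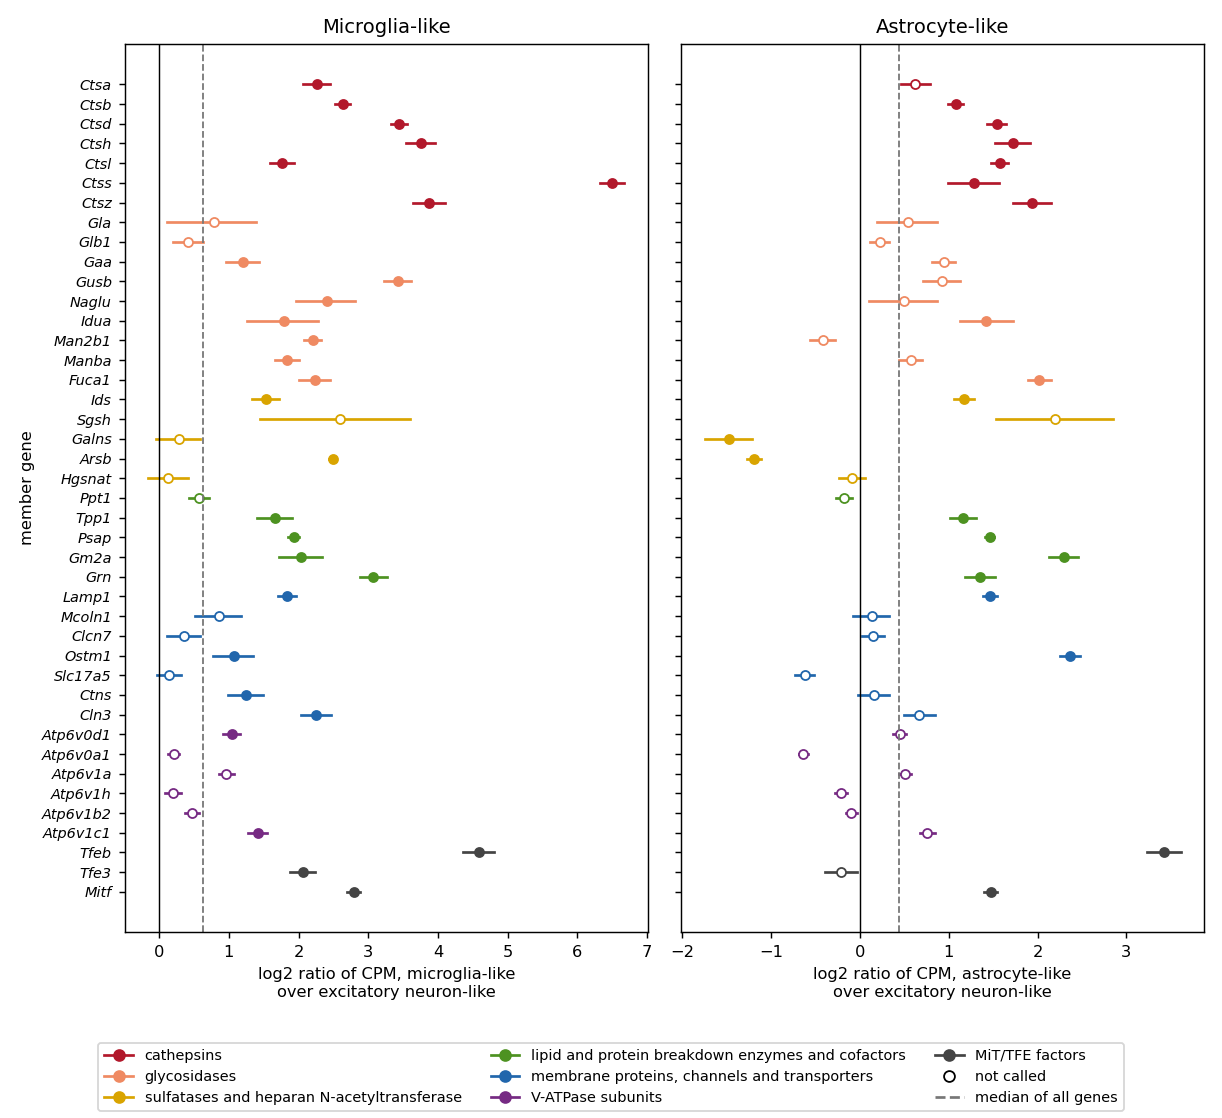
Points are log2 ratios of CPM for the 42 members, microglia-like over excitatory neuron-like on the left and astrocyte-like over excitatory neuron-like on the right, with 95% intervals for counting error and colours by group. Filled points were called, the dashed line is the median of all genes (0.62 and 0.44), and Ctss at 6.50 and Tfeb at 4.59 lie farthest right among microglia-like ratios, while Atp6v0a1 (0.21) lies left of the dashed line.

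**Figure D4:**
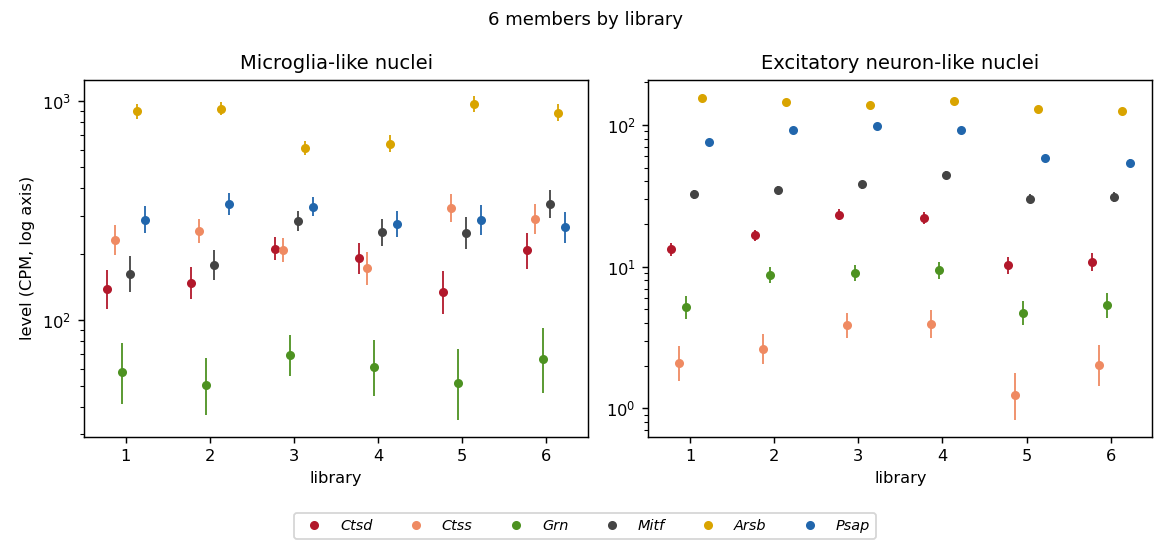
Levels in CPM on a log axis of 6 members in each of the 6 libraries, in microglia-like nuclei on the left and excitatory neuron-like nuclei on the right, with 95% Poisson intervals (counting error). In microglia-like nuclei Arsb ranged from 612 to 973 CPM and Mitf from 163 to 339 CPM, while Grn intervals overlapped in all libraries.

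Border macrophages, the phagocytes of meninges and vessel walls, differed from microglia-like nuclei in few members. Of 41 members tested, Ctsb, Hgsnat and Slc17a5 were called higher in border macrophage-like nuclei and Arsb and Tfeb lower, against 1.99% and 3.29% of all genes. The members' median log2 ratio was 0.17, that of all genes 0.0081, and the sum differed by 0.11 (0.038 to 0.18), higher in 5 of 6 libraries. Without library 3, whose 18 border macrophage-like nuclei had the highest sum, the difference was 0.05 and its interval spanned 0. With all libraries kept but without Arsb and Mitf, the sum differed by 0.33. By group, the summed log2 ratios ran from -1.05 for the genes of sulfate and heparan breakdown to 0.53 for the membrane proteins.

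Hgsnat, the membrane enzyme that acetylates heparan sulfate from the cytosolic side, stood at 105, 73.3, 298, 90.03, 154 and 216 CPM in border macrophage-like nuclei of libraries 1 to 6 and at 21.6, 18.6, 17.5, 17.8, 39.5 and 35.1 CPM in microglia-like nuclei, a log2 ratio of 2.54 (2.04 to 3.02). Ctsb, a cysteine protease, stood at 249, 374, 745, 270.1, 386 and 828 CPM and 141, 117, 227, 173, 148 and 334 CPM, a ratio of 1.17 (0.93 to 1.41). Slc17a5 stood at 118, 132, 242, 180.1, 108 and 180.1 CPM and 66.2, 61.4, 61.3, 68.7, 41.2 and 79.3 CPM, a ratio of 1.24 (0.82 to 1.65). These 3 genes, given by library because they were called, were higher in border macrophage-like nuclei of each library, and the ranges of Hgsnat and Slc17a5 did not overlap. With all nuclei placed by highest likelihood, Slc17a5 lay at 0.74 and was not called. Arsb was lower, at 243 against 793 CPM, a ratio of -1.71 (-2.01 to -1.42), with lowest, median and highest border macrophage-like libraries of 203, 249 and 360.2 CPM. Tfeb was lower as well, at 29.8 against 65.6 CPM (-1.14 (-2.11 to -0.31)), from 12 UMIs in all and 0 in libraries 4 and 6, and it was no longer called with nuclei of at least 2000 UMIs, with all nuclei placed by highest likelihood or by the median over the libraries. Of 34 other lysosomal genes, 2 were called higher, Ctsc (303 against 57.6 CPM) and Galc (119 against 32.9 CPM), and 1 lower. Their sum differed by -0.30 (-0.39 to -0.21), below 0 in every library and opposite to the members' sum. Gene by gene they did not go the other way, with 19 of the 34 above 0 and 15 below. Their median log2 ratio was 0.10, beside 0.17 for the members.

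In the oligodendrocyte lineage, which makes myelin, Tfeb and Mitf were higher in both oligodendrocyte stages than in OPC-like nuclei, and most hydrolases differed by less than 2-fold. From OPC-like to immature oligodendrocyte-like nuclei, Tfeb and Mitf were called higher and Ostm1 lower among 42 members, against 4.46% and 8.46% of all genes. The members' median log2 ratio was 0.069 and that of all genes -0.10. The sum was higher in immature oligodendrocyte-like nuclei by 0.35 (0.31 to 0.38) in 6 of 6 libraries, and without Arsb and Mitf by 0.05.

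Tfeb (chr17:47737030-47792419) stood at 22.8, 18.1, 18.7, 13.3, 11.8 and 13.8 CPM in OPC-like nuclei of libraries 1 to 6, at 147, 169, 118, 111, 144 and 83.9 CPM in immature and at 154, 156, 123, 154, 112 and 136 CPM in mature oligodendrocyte-like nuclei. The OPC-like range lay below both others, with log2 ratios of 3.04 (2.79 to 3.30) and 3.06 (2.82 to 3.31). The 2 oligodendrocyte stages were not separated, at a log2 ratio of 0.018 (-0.13 to 0.17) mature over immature, which became 0.21 centred on all genes and -0.12 with all nuclei placed by highest likelihood. A UMI of Tfeb was found in 5.54% (4.71 to 6.47) of OPC-like, 36.4% (33.4 to 39.4) of immature and 45.9% (43.2 to 48.6) of mature oligodendrocyte-like nuclei. At 1500 UMIs per nucleus these shares were 2.62%, 17.4% and 18.1%, against 0.423% in excitatory neuron-like nuclei.

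Mitf, better known from melanocytes and osteoclasts, was highest in the immature stage. It stood at 72.6, 75.04, 74.4, 90.8, 83.8 and 108 CPM in OPC-like, 388, 409.6, 339.6, 382, 423 and 336 CPM in immature and 219, 209.6, 216, 199, 231 and 274 CPM in mature oligodendrocyte-like nuclei of libraries 1 to 6, and no 2 of these ranges overlapped. The log2 ratios were 2.27 (2.15 to 2.40) from OPC-like to immature and -0.83 (-0.93 to -0.73) from immature to mature nuclei, the latter below the 2-fold limit of a call and lower in 6 of 6 libraries. Choroid plexus-like nuclei had the highest Mitf level of all classes, 857 CPM (803 to 914), with 964, 887, 746, 564, 1069 and 1099 CPM in the libraries. Its log2 ratio over immature oligodendrocyte-like nuclei was 1.13, and 0.18 with all nuclei placed by highest likelihood. At 1500 UMIs per nucleus a UMI of Mitf was found in 65.6% of choroid plexus-like and 37.2% of immature oligodendrocyte-like nuclei. Tfe3, the remaining factor, differed from OPC-like nuclei by 0.13 in immature and -0.63 in mature oligodendrocyte-like nuclei and was called in neither.

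**Figure D5:**
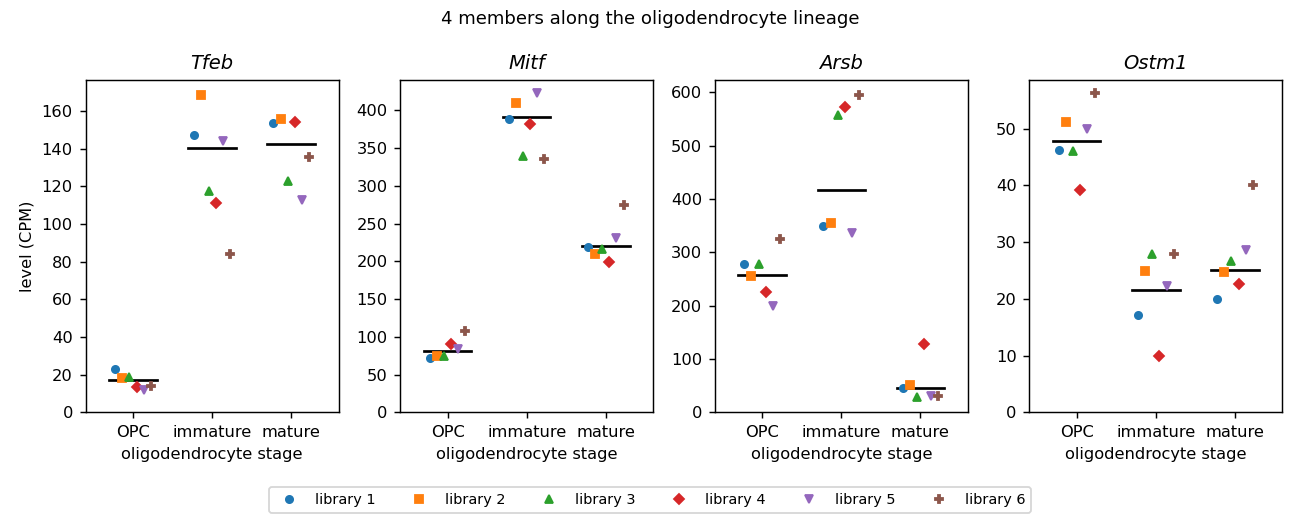
Levels in CPM of Tfeb, Mitf, Arsb and Ostm1 in OPC-like, immature and mature oligodendrocyte-like nuclei, with a point per library and a line at the level over all nuclei of the class. Tfeb rises from 17.04 to 141 CPM and stays near 142 CPM, Mitf peaks in immature nuclei (391 CPM), Arsb is lowest in mature nuclei (45.9 CPM) and Ostm1 is highest in OPC-like nuclei (47.9 CPM).

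Arsb was the member that fell most toward the mature stage. It stood at 278, 256, 279, 226, 199 and 325 CPM in OPC-like, 349, 355, 558, 573, 335 and 595 CPM in immature and 45.6, 51.7, 28.96, 128, 31.2 and 30.8 CPM in mature oligodendrocyte-like nuclei of libraries 1 to 6. The log2 ratios were -3.18 (-3.36 to -3.01) mature over immature and -2.49 (-2.67 to -2.32) mature over OPC-like, and neither pair of ranges overlapped. With all nuclei placed by highest likelihood they were -2.03 and -1.40, both still called. Immature over OPC-like it was 0.69 (0.60 to 0.78), higher in 6 of 6 libraries and under 2-fold. Ostm1, the β-subunit of the lysosomal chloride-proton exchanger Clcn7 (chr10:42583822-42702459), was highest at the precursor stage, at 46.2, 51.1, 46.1, 39.1, 49.8 and 56.3 CPM in OPC-like nuclei, 17.1, 24.95, 27.99, 9.91, 22.2 and 27.97 CPM in immature and 19.9, 24.8, 26.7, 22.6, 28.6 and 40.1 CPM in mature oligodendrocyte-like nuclei. The log2 ratio of Ostm1 was -1.16 (-1.50 to -0.82) immature over OPC-like, which was called, and -0.93 (-1.20 to -0.68) mature over OPC-like, which was not. The call was lost with all nuclei placed by highest likelihood (-0.73) and with means of per-nucleus CPM (-0.99). Its partner Clcn7 lay at 0.50 and 0.78, and with ratios centred on all genes the second was called higher.

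Of 42 members compared between mature oligodendrocyte-like and OPC-like nuclei, 2 were called higher, Tfeb and Mitf, and 3 lower, Arsb, Gm2a and Gla, against 7.43% and 15.5% of all genes. Centred on all genes, whose median was -0.29, 3 were called higher (Clcn7 joined) and 1 lower (Arsb), with no centred share of all genes computed. The members' median was -0.30, and the sum of -0.18 (-0.21 to -0.15) turned to 0.11 when centred and to 0.38 in UMIs per nucleus. Uncentred, the lowest, median and highest library values of this sum were -0.19, -0.14 and -0.033. Gm2a stood at 10.8 against 24.5 CPM (-1.18 (-1.58 to -0.80)), and Gla at 1.89 against 4.23 CPM (-1.16 (-2.19 to -0.23)) from 13 and 40 UMIs, and neither was called with all nuclei placed by highest likelihood. Between mature and immature nuclei, Arsb was the 1 member called lower and 0 were called higher, against 7.61% and 6.09% of all genes. The sum differed by -0.53 (-0.57 to -0.49), and the medians were -0.25 for members and -0.19 for all genes. Without Arsb and Mitf the sums were 1427 CPM in mature and 1634 CPM in immature nuclei, against 1693 and 2442 CPM with them. Cathepsins, with 0 of 7 called in any of the 3 comparisons, included Ctsd at 22.97, 36.2 and 51.7 CPM in OPC-like, 27.1, 36.3 and 57.8 CPM in immature and 19.5, 27.03 and 56.4 CPM in mature nuclei (lowest, median and highest library), ranges that overlapped throughout. Mature nuclei numbered 379, 444, 82, 52, 309 and 67 in libraries 1 to 6, and immature nuclei 82 to 267 per library. Libraries with fewer nuclei thus carry wider counting error, and levels over all mature nuclei rest mostly on libraries 1, 2 and 5.

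Lists of genes that are no members were read beside these counts. Of 33 other lysosomal genes tested, 9 were called higher in mature oligodendrocyte-like than in OPC-like nuclei and 2 lower, and the largest ratios were those of the legumain gene Lgmn (1.51), the acid lipase Lipa (1.45) and Ctsk (1.44). The a subunits of the V-ATPase, which anchor the pump to its membrane, were not alike. Atp6v0a1, a member, differed by -0.86 (-1.02 to -0.71) between immature oligodendrocyte-like and OPC-like nuclei and by 0.35 (0.18 to 0.52) between mature and immature ones, neither called. Atp6v0a2, no member, stood at 33.8, 239 and 73.3 CPM in OPC-like, immature and mature nuclei, with 2.82 (2.64 to 3.01) and then -1.71 (-1.87 to -1.55) on the log2 scale, both called. Atp6v0a4 stood at 7.73, 29.5 and 4.08 CPM, and both steps were called.

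Astrocytes, which take up and recycle transmitters, lipids and debris, differed from excitatory neuron-like nuclei in part of the set. Of 42 members, 17 were called higher in astrocyte-like nuclei and 2 lower, against 25.5% and 12% of all genes, so that the share called higher was above that of all genes. Centred on the all-gene median of 0.44, 11 were called higher and 4 lower. The share of all genes called with centred ratios was not computed, so the comparison with all genes was made for uncentred ratios only. The members' median was 0.71, and the sum of 0.39 (0.37 to 0.40) turned to -0.048 when centred and to -1.09 in UMIs per nucleus. By group, 6 of 7 cathepsins, 4 of 5 enzymes and cofactors of lipid and protein breakdown, 2 of 9 glycosidases, 2 of 7 membrane proteins, 1 of 5 genes of sulfate breakdown, 2 of 3 MiT/TFE factors and 0 of 6 V-ATPase subunits were called higher.

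Tfeb had the largest ratio, 3.42 (3.24 to 3.61), with 24.2, 25.97 and 35.3 CPM in the lowest, median and highest astrocyte-like library. Ostm1 was next, at 59.04, 64.5, 55.4, 50.5, 56.2 and 46.2 CPM in astrocyte-like nuclei of libraries 1 to 6 and 10.02, 10.9 and 13.3 CPM (lowest, median, highest) in excitatory neuron-like nuclei, a ratio of 2.36 (2.26 to 2.47). Interneuron-like nuclei held it at 54.6 CPM, and counting error did not separate them from astrocyte-like nuclei at 57.04 CPM. Gm2a (2.29), the fucosidase Fuca1 (2.02), Ctsz (1.94), Psap (1.46) and Lamp1 (1.46) were also higher. Ctsd stood at 33.5, 46.2 and 59.4 CPM in the lowest, median and highest astrocyte-like library, above each excitatory neuron-like one, at a ratio of 1.54 (1.43 to 1.64). The 2 called lower were Galns, at 5.39 against 15.002 CPM (-1.48 (-1.75 to -1.21)), and Arsb, at 61.6 against 141 CPM (-1.19 (-1.27 to -1.11)), which was not called with all nuclei placed by highest likelihood. For the 6 V-ATPase subunits among the members, the sum of astrocyte-like over excitatory neuron-like nuclei was -0.078 (-0.10 to -0.053) on the log2 scale. It was above 0 in 1 of 6 libraries, and Atp6v0a1 lay at -0.64. The sum of the 17 other V-ATPase genes went the other way, at 0.69 (0.67 to 0.71) and above 0 in 6 of 6 libraries. Of these 17 genes, 7 were called higher in astrocyte-like nuclei and 1 lower.

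Read by promoter, 8 of the 14 members with the core CACGTG were called higher in microglia-like than in excitatory neuron-like nuclei, and of the 21 members without it, 18 were, against 25.6% of all genes. In astrocyte-like over excitatory neuron-like nuclei 3 of 14 and 12 of 21 were called higher, against 25.5% of all genes. The median log2 ratios with and without the core were 1.48 and 2.04 for microglia-like over excitatory neuron-like nuclei, and 0.58 and 1.17 for astrocyte-like over excitatory neuron-like nuclei. In the other comparisons the median was higher with the core, at 0.29 and 0.18 for border macrophage-like over microglia-like, 0.074 and -0.084 for immature over OPC-like, -0.080 and -0.41 for mature over OPC-like and -0.19 and -0.40 for mature over immature oligodendrocyte-like nuclei. These differences were not tested.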

How the data were processed

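Frozen forebrain nuclei of 3 WT and 3 Npc1-/- mice were measured by 10x Genomics snRNA-seq. Per the file headers, the deposited matrix holds raw UMI counts (whole numbers for each gene in each barcode), written by Cell Ranger 6.0.0; the submitters' processing notes name Cell Ranger 2.1.1 and mm10, and the authors describe STARsolo with GRCm38, removal of empty droplets and multiplets, imputation and log-normalization. How the matrix relates to that processing, and whether multiplets had been removed, is not given in the labels, headers or methods.

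Barcodes with a mitochondrial share of 10% or more were left out (11 of 75878), and 631 barcode sequences occurred in more than 1 library (1264 barcodes). A nucleus entered a class when the log-likelihood of its marker UMIs exceeded every other class by at least 5, at least 3 UMIs fell on at least 2 markers of the class, and no mixture of 2 classes was better by more than 2, a step that also served against doublets. These limits were set after the data had been seen. The members and the gene lists were chosen with earlier results of these data known. Genes with at least 20 UMIs in the 2 classes compared were tested. Intervals are exact Poisson, Clopper-Pearson or conditional binomial at 95%, and UMIs from 1 library share its preparation. Shares were also given after thinning to 1500 UMIs per nucleus, without shallower nuclei. Named genes, given by library, were per group the 2 members of largest highest-to-lowest fold among those with at least 100 UMIs in the highest class, plus Lamp1, Ctsd, Psap, Grn, Tfeb, Tfe3 and Mitf; Ctsb, Hgsnat and Slc17a5 were added after their values were seen. Genes that are no members were the 3 of largest ratio in 2 comparison lists, or markers; Atp6v0a4, Galc and Ctsc were named likewise. Gating was tested on nuclei simulated from the gate's own class profiles, and calls on simulated Poisson counts. These simulations held no mixed nuclei and no differences between libraries, so they cannot show how gating and calls fare with either. Python 3.11.15, numpy 2.4.6, scipy 1.17.1, pandas 2.3.3 and matplotlib 3.10.9 were used. Gene positions are from GENCODE M21 (GRCm38), promoters from RefSeq (GRCm38.p6). Alternatives were gates with more marker UMIs, all nuclei placed by highest likelihood, other limits on depth and mitochondrial share, other scalings, and leaving out each library. 1 gene of the other lysosomal list is counted in its totals and not reported here.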

Additional observations from a re-analysis of the deposited data

Results flagged for a closer look

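In 2 of 33 series of 6 library values (15 sums over the members and the 18 named genes in their highest class), 1 library lay farther from the nearest other, relative to the whole range, than Dixon's limit, which chance passes in about 1 series of 20. Both were in border macrophage-like nuclei, and both in library 3, which held 18 of them. Psap stood at 577 CPM there and at 288 to 330 CPM in the other libraries, a gap of 0.855 of the range. Atp6v0a1 stood at 708 CPM there and at 396 to 499 CPM in the other libraries, a gap of 0.671 of the range.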

How the results depend on the processing

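No paired analysis was possible because no key ties the libraries to the numbered mice, so no test between WT and Npc1-/- was made. Of the alternative values for sums, counts and class levels, 506 were taken as kept and 33 were not. For sums this meant the same direction and side of the threshold, or a shift within the spread over libraries. Class levels had to stay within that spread, and counts of members within 1.5-fold. A fall from 29 to 21 members called higher in microglia-like over excitatory neuron-like nuclei thus still passed as kept. For single genes, judged as the sums were, 470 were kept and 6 were not. In UMIs per nucleus, chosen after seeing the data, the log2 ratios of the members' sums were -0.57 (microglia-like over excitatory neuron-like), 0.54 (immature oligodendrocyte-like over OPC-like), 0.38 (mature over OPC-like), -0.15 (mature over immature) and -1.09 (astrocyte-like over excitatory neuron-like), and those of the V-ATPase sums were 1.56 (excitatory neuron-like over astrocyte-like) and 1.60 (over microglia-like). Centred on all genes, the sums gave 0.11 (mature over OPC-like) and -0.048 (astrocyte-like over excitatory neuron-like), the V-ATPase sum 0.083 (excitatory neuron-like over microglia-like) and Atp6v0a1 -0.41 (microglia-like over excitatory neuron-like), with 1 member called lower in mature than OPC-like nuclei and 11 higher and 4 lower in astrocyte-like nuclei. With all nuclei placed by highest likelihood, Tfeb gave -0.12 (mature over immature), 1 member was called lower in each of border macrophage-like over microglia-like, mature over OPC-like and astrocyte-like over excitatory neuron-like nuclei, and summed levels were 3552 CPM (microglia-like), 2341 CPM (choroid plexus-like) and 1642 CPM (neuroblast-like). With nuclei of at least 2000 UMIs 1 member was called lower in border macrophage-like than microglia-like nuclei. At 1.5-fold the members called lower were 2 (immature over OPC-like), 5 (mature over OPC-like), 3 (mature over immature) and 4 (astrocyte-like), and 1 was called higher (mature over immature). With means of per-nucleus CPM 0 were called lower (immature over OPC-like, where the call of Ostm1 was lost), and 1 was called higher and 2 lower (mature over immature). The neuroblast-like sum was 1468 CPM with the stricter gate on marker UMIs and 1672 CPM without the deepest 10% of nuclei. Leaving out 1 library at a time, the border macrophage-like over microglia-like sum ran from 0.050 (without library 3, interval spanning 0) to 0.15, and the members called lower in immature oligodendrocyte-like than OPC-like nuclei from 1 to 2, with Ctsh joining Ostm1 without library 1 and Ctss without library 5. The cause of each change was not tested, and the share of all genes called under each alternative was not computed. Between 32 and 41 of the 42 members kept their highest class, and 28 to 34 were highest in microglia-like or border macrophage-like nuclei. Members of few UMIs (Gla, Sgsh, Naglu and Idua) and the 168 border macrophage-like nuclei limit what depth can show.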

Other observations

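Outside the glia and neurons compared, barrier classes held some members at high levels. In choroid plexus-like nuclei, which make cerebrospinal fluid, Psap stood at 333 CPM (299 to 368), above astrocyte-like (219 CPM) and excitatory neuron-like nuclei (79.7 CPM), while Cln3 had its lowest level of all classes there, 8.1997 CPM (3.75 to 15.6). Endothelial-like nuclei held Glb1 at 67.1 CPM (61.03 to 73.7), not separated from border macrophage-like nuclei (71.9 CPM), with the limit that its counts are uncertain. Ependymal-like nuclei, which line the ventricles, had the highest level of Ids, 60.8 CPM (49.7 to 73.7), whose interval overlapped that of microglia-like nuclei (48.4 CPM (42.4 to 55.1)). The mannosidase Manba was lowest in striatal projection neuron-like nuclei, 5.502 CPM (4.63 to 6.48), and stood at 50.02 CPM in neuroblast-like nuclei. None of these classes was compared over mice.

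The library values of a few members fell into separate sets, seen after the data were examined and given as values with no test, since no library is tied to a mouse. Arsb in immature oligodendrocyte-like nuclei of libraries 1 to 6 stood at 349, 355, 558, 573, 335 and 595 CPM, from 222, 267, 126, 125, 220 and 82 nuclei, and the 95% Poisson intervals of libraries 3, 4 and 6 did not overlap those of libraries 1, 2 and 5. In microglia-like nuclei, Arsb stood at 898, 923, 612, 640.1, 973 and 886 CPM, where libraries 3 and 4 lay below the others, again with intervals apart. Ctsd in microglia-like nuclei stood at 138, 148, 212, 192, 134 and 208 CPM, and in excitatory neuron-like nuclei at 13.2, 16.7, 23.3, 22.1, 10.2 and 10.8 CPM, so that libraries 3 and 4 were among the higher ones in both classes and library 6 in microglia-like nuclei and not in excitatory neuron-like nuclei. Mitf in microglia-like nuclei stood at 163, 179, 284, 252, 251 and 339 CPM, where libraries 1 and 2 lay below the others. The sets differed from gene to gene and from class to class.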
